A study of Bos taurus with 6 samples.

Results

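Molecular chaperones bind unfolded or partly folded proteins and release them in a form that can fold, and most of them do so in cycles of ATP binding and hydrolysis. HSP70 proteins work with J-domain proteins (HSP40), which deliver substrates and start hydrolysis, and with exchange factors such as HSP110 and the BAG proteins, which reset the cycle. HSP90 takes over kinases and steroid receptors at a late stage of folding, the ring-shaped CCT chaperonin folds actin and tubulin, and a separate HSP70, HSP60 and HSP10 system serves the mitochondrial matrix. The genes described here are 40 chaperones, co-chaperones and heat shock factors of the cytosol and the mitochondria, taken as every probe whose platform gene symbol is on that list. Of the 40 genes, 39 had a probe (60 probes in all), and 37 were among the 9218 genes tested. DNAJA1, a cytosolic J-domain protein, had no probe with its symbol, and HSF1 and HSPB8 were not well above background.

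Cumulus cells, which enclose the oocyte and nourish it, were compared in 3 replicates on 2-colour arrays of RNA. The cells of the later time point came from cumulus-oocyte complexes matured in vitro for 6 h, and those of the earlier time point (0 h) from complexes that were not cultured. All complexes were from ovaries of slaughtered Holstein cows. Matured complexes had at least 5 layers of cumulus and were kept in TCM-199 with serum, estradiol, pyruvate and gentamicin. The 0 h cells were detached mechanically, and the sources used here do not give how the 6 h cells were detached. Both RNAs of a replicate were compared on a first array and, with Cy3 and Cy5 swapped, on another, 6 arrays in all. The labels call the replicates biological without the number of animals in each, and the p-values cover only the spread among the 3.

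The labelled cell type was checked against marker lists. A gene is called here where limma's adjusted p was under 0.05, and a log2 ratio is 6 h over 0 h, so that a positive value means a higher level at 6 h. Of 11 tested cumulus and granulosa markers, 7 were called lower at 6 h, FSHR (-1.53) and CYP19A1 (-1.49 on the log2 scale) among them, and the summed level of the list was 123632 to 131463 at 6 h and 159342 to 164832 at 0 h, in linear intensity. Of 10 tested oocyte markers 0 were called by limma, but their median ratio was 2.24, 1.30 and -1.25 in replicates 1, 2 and 3, and their summed level was 2927 to 7254 at 6 h and 1381 to 19054 at 0 h. Of 6 tested theca and stroma markers, 4 were called higher (PDGFRA 1.93, LUM 1.23, TCF21 1.07 and DCN 0.69), with a summed level of 24532 to 31570 at 6 h and 14897 to 25066 at 0 h, while the defining theca genes CYP17A1 and INSL3 were not well above background. Of 4 tested blood markers (CD68, CD3E, PTPRC and HBA), the macrophage gene CD68 (1.34) was called higher, and the endothelial markers PECAM1, VWF and CDH5 were not tested. The part of these cell types in the ratios below was not tested. In such bulk samples, fewer cells of a type and less RNA per cell cannot be told apart.

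After 6 h of maturation more chaperone genes were higher than lower. Of the 37 tested genes, 14 were called higher (37.8%), against 17.4% of all genes tested. The list was chosen with earlier results of these data known, so this share and those below do not test an excess. DNAJB4 and HSPA1A were the 2 genes called lower (5.41%), against 18.2% of all genes tested. The remaining 21 were not called, among them HSPA8 and both cytosolic HSP90 genes, HSP90AA1 and HSP90AB1. The 16 called genes were 43.2% of those tested, against 35.6% of all genes. The median ratio of the 37 genes was 0.28, with replicate medians of 0.20, 0.27 and 0.25, beside -0.02 for all genes tested. HSPH1, CHORDC1, STIP1 and HSPA9 rose at least 2-fold (10.8% of the 37 genes, against 6.26% of all genes tested), and DNAJB4 fell at least 2-fold (2.70%, against 5.35% of all genes tested). The mean ratio was above 0 for 27 of the 37 genes (73.0%, against 48.0% of all genes tested). All 3 replicates had a ratio above 0 for 24 genes (64.9%, against 30.6% of all genes tested) and below 0 for 5 (13.5%, against 33.4%), and 8 genes had replicates of both signs. All 3 levels at 6 h were above all 3 at 0 h for 16 genes (43.2%, against 20.1% of all genes tested) and below them for 2 genes (5.41%, against 22.8%).

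**Figure D1:**
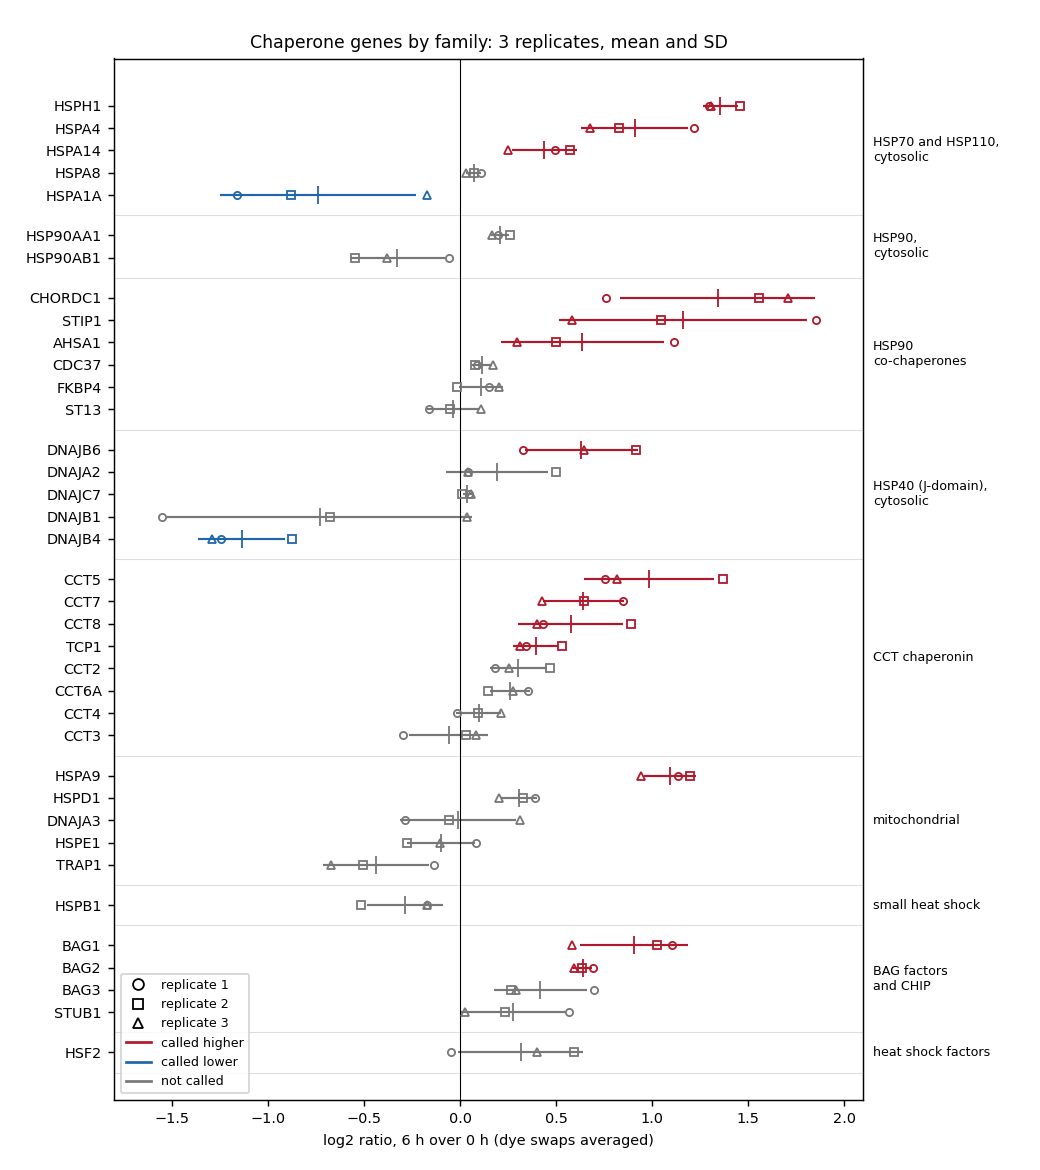
Log2 ratio of 6 h over 0 h (horizontal axis) for the 37 tested chaperone genes, grouped by family, with a symbol for each of the 3 replicates, a tick for the mean and a bar for the SD. HSPH1 has the highest mean (1.36) and DNAJB4 the lowest (-1.14), and each larger family holds both called and uncalled genes.

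By family, the median log2 ratio was highest in the BAG factors with CHIP (0.53 over 4 tested genes, of which 2 were called higher and 0 lower). It was 0.44 in cytosolic HSP70 and HSP110 (5 tested, 3 higher, 1 lower), 0.37 in the HSP90 co-chaperones (6 tested, 3 higher, 0 lower) and 0.35 in the CCT chaperonin (8 tested, 4 higher, 0 lower). It was near 0 in cytosolic HSP40 (0.04, 5 tested, 1 higher, 1 lower), the mitochondrial genes (-0.01, 5 tested, 1 higher, 0 lower) and HSP90 itself (-0.06, 2 tested, none called). Single genes of these 3 families lay on both sides of 0. They ranged from -1.14 to 0.63 in cytosolic HSP40, -0.44 to 1.09 in the mitochondrial genes and -0.33 to 0.21 in HSP90. The mitochondrial median was the value of the brightest DNAJA3 probe, and another DNAJA3 probe of almost the same brightness read 0.47. With the mean of all tested probes of each gene, the mitochondrial median was 0.07. The small heat shock gene HSPB1 stood at -0.29 and the heat shock factor HSF2 at 0.32, neither of them called. Differences between families were not tested.

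Within HSP70, the exchange factors and the inducible gene moved in opposite directions. HSPH1 (probe EMBV3_24347), the HSP110 protein that exchanges nucleotide on HSP70, had log2 levels of 11.97, 11.90 and 12.04 at 6 h and 10.67, 10.44 and 10.73 at 0 h in replicates 1, 2 and 3. The 6 h levels were close together and all above the 0 h levels. Its log2 ratio was 1.36 ± 0.09 (SD, n = 3, limma adjusted p 0.00165), with a 95% interval of 1.08 to 1.63. HSPA4, a relative of HSPH1 with the same exchange role, had levels of 11.27, 11.67 and 11.15 at 6 h and 10.05, 10.84 and 10.47 at 0 h. Every 6 h level lay above every 0 h level, and the ratio was 0.91 ± 0.28 (SD, n = 3, limma adjusted p 0.00746). HSPA14, an HSP70 that works at the ribosome, rose by 0.44 ± 0.17 (SD, n = 3, limma adjusted p 0.0383).

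HSPA1A, the HSP70 that heat and other stress induce in many cells, had levels of 8.22, 8.19 and 8.67 at 6 h and 9.39, 9.07 and 8.84 at 0 h. No 6 h level reached the lowest 0 h level, but in replicate 3 the difference was small: the ratios were -1.16, -0.88 and -0.17 in replicates 1, 2 and 3. Their mean was -0.74 ± 0.51 (SD, n = 3, limma adjusted p 0.0415). A separate probe annotated to HSPA1B, which RefSeq lists as a synonym of HSPA1A in cattle and which the platform symbols keep apart, read -1.16, -0.92 and -0.03, with a mean of -0.70 (limma adjusted p 0.0679), and was not called. The HSPA1 genes are near-identical copies, so that either probe may report more than 1 of them, and which copy was lower is uncertain.

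HSPA8, the constitutive HSP70 that serves most newly made proteins, had levels of 15.23, 15.19 and 15.14 at 6 h and 15.12, 15.12 and 15.12 at 0 h. The levels did not overlap, yet the difference was small: the ratio was 0.07, with a 95% interval of -0.19 to 0.33 (limma adjusted p 0.657). HSP90AA1, the cytosolic HSP90 that responds more to stress, had levels of 15.26, 15.23 and 15.27 at 6 h and 15.06, 14.97 and 15.10 at 0 h. All 6 h levels were higher, but the ratio of 0.21 (95% interval -0.05 to 0.47, limma adjusted p 0.181) was not called. Its constitutive partner HSP90AB1 had levels of 14.98, 14.26 and 14.58 at 6 h and 15.04, 14.81 and 14.96 at 0 h. The groups overlapped through replicate 1, and the ratio was -0.33 (95% interval -0.67 to 0.01, limma adjusted p 0.118). The HSP90AB1 ratio was -0.58 on the arrays with 6 h RNA in Cy3 and -0.07 on those with it in Cy5. HSP90AB1 was called lower under 2 of 15 other ways of processing, the Cy3 arrays alone and without replicate 1. The HSPA8 and HSP90AA1 probes came close to the scanner's ceiling of 65535. The brightest spot had a median pixel of 63057 for HSPA8, 65298 for HSP90AA1 and 50360 for HSP90AB1. The highest spot means, the values used here, were 38826.6, 40407.7 and 35784.9. No chaperone probe had a spot median at the ceiling, and whether pixels at or near the ceiling narrowed these ratios was not tested.

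The HSP90 co-chaperones divided evenly into 3 genes that rose and 3 that were not called. CHORDC1, a co-chaperone that binds HSP90 and is induced by heat in other cells, had levels of 11.69, 12.03 and 12.12 at 6 h and 10.93, 10.48 and 10.41 at 0 h. All 6 h levels were above all 0 h levels, with the smallest gap in replicate 1, and the ratio was 1.34 ± 0.51 (SD, n = 3, limma adjusted p 0.00719). STIP1, the adaptor (HOP) that joins HSP70 to HSP90, had levels of 11.18, 11.07 and 10.45 at 6 h and 9.33, 10.02 and 9.86 at 0 h. The groups did not overlap, and the gap was widest in replicate 1, where the 0 h level was the lowest of the 3. Its ratio was 1.16 ± 0.64 (SD, n = 3, limma adjusted p 0.0188). AHSA1, which activates the ATPase of HSP90, rose by 0.64 ± 0.42 (SD, n = 3, limma adjusted p 0.0438), although its levels overlapped between time points because replicate 2 was higher than the others at both. CDC37, which recruits kinases (0.11), FKBP4, an immunophilin of steroid receptor complexes (0.11), and ST13, which stabilises substrate-bound HSP70 (-0.04), were not called (limma adjusted p 0.467, 0.496 and 0.846).

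**Figure D2:**
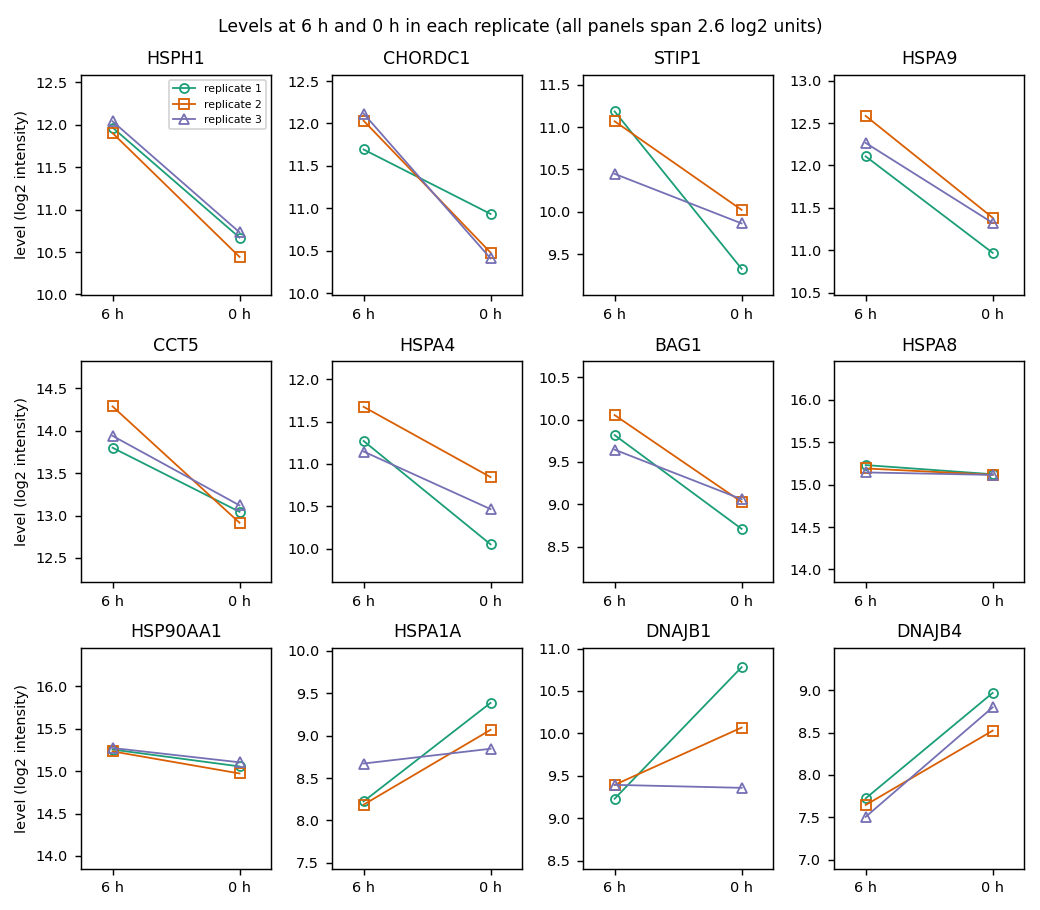
Log2 level (vertical axis, log2 intensity after scaling of both channels) at 6 h and 0 h for 12 chaperone genes, with a line for each of the 3 replicates and the same span in every panel. HSPH1 shows parallel lines (1.36 ± 0.09), while DNAJB1 differs between replicates mainly at 0 h, where its levels are 10.78, 10.07 and 9.36.

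Among the cytosolic J-domain proteins, DNAJB4 and DNAJB1, which are close relatives that pair with HSP70, both had negative mean ratios, but only DNAJB4 passed the test. DNAJB4 had levels of 7.72, 7.65 and 7.51 at 6 h and 8.97, 8.52 and 8.80 at 0 h. All 6 h levels were lower, and the ratio was -1.14 ± 0.23 (SD, n = 3, limma adjusted p 0.00331). DNAJB1, the main heat-inducible J-domain partner of HSP70, had levels of 9.23, 9.39 and 9.39 at 6 h and 10.78, 10.07 and 9.36 at 0 h. The 6 h levels were alike (SD 0.09) and the 0 h levels spread widely (SD 0.71), so that replicate 3 showed no drop and the groups overlapped. The ratios were -1.55, -0.68 and 0.04, with a mean of -0.73 (limma adjusted p 0.115). Whether DNAJB4 and DNAJB1 differed was not tested. DNAJB6, which keeps aggregation-prone proteins soluble, went the other way and rose by 0.63 ± 0.29 (SD, n = 3, limma adjusted p 0.0237), with a ratio of -0.03 on 1 of the 6 arrays and levels that overlapped between time points. DNAJA2 (0.19) and DNAJC7 (0.04), J-domain proteins of the cytosol, were not called (limma adjusted p 0.341 and 0.818).

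The replicates spread most for DNAJB1 (SD of the log2 ratio 0.79), STIP1 (0.64), HSPA1A (0.51), CHORDC1 (0.51) and AHSA1 (0.42). The ratios of DNAJB1, STIP1, HSPA1A and AHSA1 were largest in size in replicate 1 and smallest in replicate 3, and those of CHORDC1 the other way round. The oocyte markers had median ratios of 2.24, 1.30 and -1.25 in replicates 1, 2 and 3, and their part in the spread of these genes was not tested. The spread was small for HSPA9 (SD 0.13), HSPH1 (0.09) and BAG2 (0.05).

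All 8 subunits of the CCT chaperonin were tested, and 4 rose. CCT5 had levels of 13.80, 14.29 and 13.94 at 6 h and 13.04, 12.92 and 13.12 at 0 h. Every 6 h level was above every 0 h level, with the widest gap in replicate 2, and the ratio was 0.98 ± 0.34 (SD, n = 3, limma adjusted p 0.00804). CCT7 rose by 0.64 ± 0.21, CCT8 by 0.58 ± 0.27 and TCP1, the subunit the complex is named after, by 0.40 ± 0.12 (SD, n = 3 each, limma adjusted p 0.0147, 0.0282 and 0.0422). The levels of CCT7 and CCT8 did not overlap between time points, and those of TCP1 did. CCT2 stood at 0.30 (95% interval 0.01 to 0.59) and CCT6A at 0.26 (-0.02 to 0.53), short of the threshold at limma adjusted p 0.0975 and 0.125. CCT4 (0.10, interval -0.18 to 0.37) and CCT3 (-0.06, interval -0.37 to 0.26) were near 0. The subunits form a ring in equal numbers as proteins, and their mRNA ratios ranged from -0.06 to 0.98 here. A test of the differences between subunits was not made.

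Of the mitochondrial genes 1 rose. HSPA9 (mortalin), the HSP70 that pulls imported proteins into the matrix, had levels of 12.11, 12.58 and 12.27 at 6 h and 10.97, 11.38 and 11.32 at 0 h. No levels overlapped, and the ratio was 1.09 ± 0.13 (SD, n = 3, limma adjusted p 0.00263). HSPD1 (HSP60) had levels of 14.24, 14.52 and 14.22 at 6 h and 13.85, 14.19 and 14.01 at 0 h. All 6 h levels were higher, and its ratio of 0.31 (95% interval 0.04 to 0.58) missed the threshold at limma adjusted p 0.0794. HSPE1 (HSP10), the lid of the HSP60 ring, had levels of 13.02, 13.12 and 12.85 at 6 h and 12.94, 13.39 and 12.96 at 0 h. These overlapped, with a ratio of -0.10 (limma adjusted p 0.584). HSPD1 and HSPE1 are neighbouring genes in the RefSeq annotation of cattle, and in human they share a promoter that reads in both directions. TRAP1, the mitochondrial HSP90, had a ratio of -0.44 (95% interval -0.79 to -0.08, limma adjusted p 0.0628). DNAJA3, the J-domain partner of HSPA9, read -0.01 through its brightest probe (limma adjusted p 0.971). Another DNAJA3 probe of almost the same brightness read 0.47 (limma adjusted p 0.0232 over all tested probes).

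HSPB1 (HSP27), a small heat shock protein that holds unfolded proteins and binds actin, had levels of 11.31, 11.29 and 11.79 at 6 h and 11.48, 11.81 and 11.96 at 0 h. The time points overlapped, although each replicate was lower at 6 h once its swap was averaged. The ratio was -0.29 (95% interval -0.60 to 0.03, limma adjusted p 0.135). It was -0.57 on the arrays with 6 h RNA in Cy5 and -0.01 on those with it in Cy3. The 3 probes of HSPB8, a small heat shock protein that works with BAG3, were above background on 0 to 2 arrays at 6 h and on 0 to 3 arrays at 0 h.

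Of the HSP70 exchange factors of the BAG family, BAG1 and BAG2 rose. BAG1, which links HSP70 to the proteasome, had levels of 9.82, 10.05 and 9.64 at 6 h and 8.71, 9.03 and 9.06 at 0 h. The groups did not overlap, and the ratio was 0.90 ± 0.28 (SD, n = 3, limma adjusted p 0.00764). BAG2, an inhibitor of the ubiquitin ligase CHIP, rose by 0.64 ± 0.05 (SD, n = 3, limma adjusted p 0.00852). BAG3, a stress-induced partner of HSP70 in selective autophagy, stood at 0.42 with non-overlapping levels (limma adjusted p 0.0605), and STUB1, which encodes CHIP, at 0.28 (limma adjusted p 0.188). Of the transcription factors of the heat shock response, HSF1 exceeded the background on 5 arrays in its 6 h channel and on 4 in its 0 h channel and was not tested. HSF2 had replicate ratios of -0.04, 0.59 and 0.40 (limma adjusted p 0.174).

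For 9 of the 37 genes more than 1 probe was tested, and p-values of single probes were adjusted over all 20831 tested probes. The second probes of STIP1 (1.22), BAG1 (0.92) and AHSA1 (0.51) were also called higher (limma adjusted p 0.0236, 0.00888 and 0.0364). The 4 CHORDC1 probes read 1.34, 1.46, 0.60 and 0.86, and all but the 0.60 probe (limma adjusted p 0.0935) were called. Replicate 1 was the lowest on each of these 4 probes, and replicate 1 was the highest on both STIP1 probes. DNAJB1 was not called through its brightest probe, but its dimmest probe, at -0.60, was (limma adjusted p 0.0368), and the third read -0.22. For DNAJA3 the brightest probe read -0.01 and the next, of almost the same brightness, 0.47 (limma adjusted p 0.0232). The 2 HSPD1 probes differed in sign (0.31 and -0.18), and both HSPB1 probes were negative (-0.29 and -0.44, the second at limma adjusted p 0.0504). The dim probes of BAG2, CCT7 and TRAP1 were not well above background and read between -0.09 and 0.17.

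**Figure D3:**
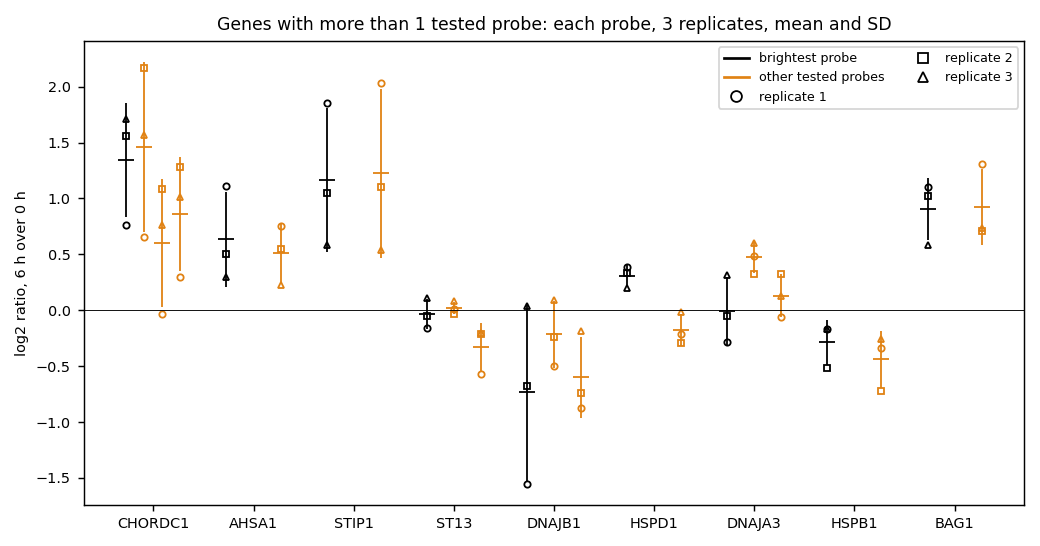
Log2 ratio of 6 h over 0 h (vertical axis) for each tested probe of the 9 genes with more than 1, with a symbol per replicate, the mean as a dash and the SD as a bar. The probes of STIP1 and BAG1 lie together, whereas those of DNAJA3 (-0.01, 0.47 and 0.13) and HSPD1 (0.31 and -0.18) do not.

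The dye orientations of a swap were also compared. The mean ratio with the 6 h RNA in Cy5 minus that with it in Cy3 lay between -0.56 (HSPB1) and 0.75 (HSPE1), and exceeded 0.4 in size for 7 genes (18.9%, beside 18.1% of all genes tested). For HSPE1 all 3 arrays with 6 h RNA in Cy5 were above 0 and all 3 with it in Cy3 were below 0, the only tested chaperone gene with that pattern. HSPA4 read 1.18 with the 6 h RNA in Cy5 and 0.64 with it in Cy3, and CCT7 read 0.89 and 0.39. HSPD1 read 0.08 and 0.53 and CCT6A -0.02 and 0.54 in the same order. HSPH1 (1.31 and 1.40) and DNAJB4 (-1.16 and -1.11) hardly differed between orientations. Of the 16 called genes, 15 had 1 sign on all 6 arrays, the exception being DNAJB6. A call already favours genes whose arrays share a sign, so this count is not a separate check of the calls. The share among all called genes was not computed.

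**Figure D4:**
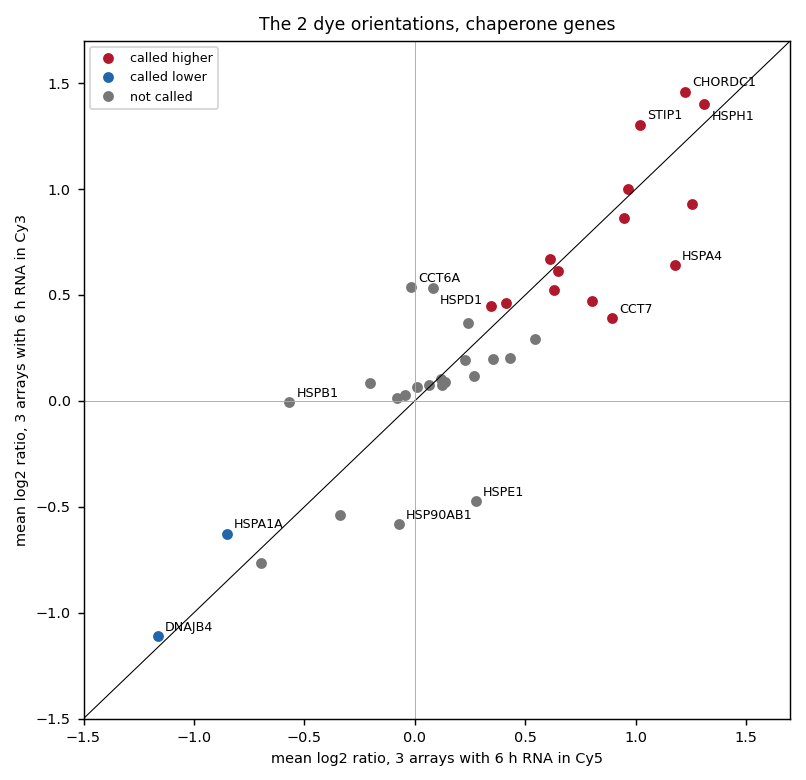
Mean log2 ratio of 6 h over 0 h on the 3 arrays with 6 h RNA in Cy5 (horizontal axis) against that on the 3 arrays with it in Cy3 (vertical axis), with a point per chaperone gene and the line of equality. HSPE1 lies farthest from the line (0.28 and -0.47), and HSPH1 and DNAJB4 lie close to it.

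Across 15 other ways of processing the arrays, HSPH1, CHORDC1, CCT5, HSPA9 and DNAJB4 were called under each. These 15 count the authors' deposited matrix and the identical value table of the series separately. CHORDC1 was closest to the threshold, at a limma adjusted p of 0.04999 without replicate 2. Without replicate 2 the number of called chaperone genes was 6, and STIP1, BAG1, BAG2, CCT7, CCT8, DNAJB6, AHSA1, HSPA14, TCP1 and HSPA1A were not called. The number called among all genes tested also fell without that replicate, as given below, so the loss was not particular to these genes. HSPA1A was called under 9 of the 15, TCP1 under 8 and AHSA1 under 6. DNAJB1, which was not called over 3 replicates, was called lower at -1.11 without replicate 3 and also in a fit of all 6 arrays with a replicate block. No called gene changed sign.

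**Figure D5:**
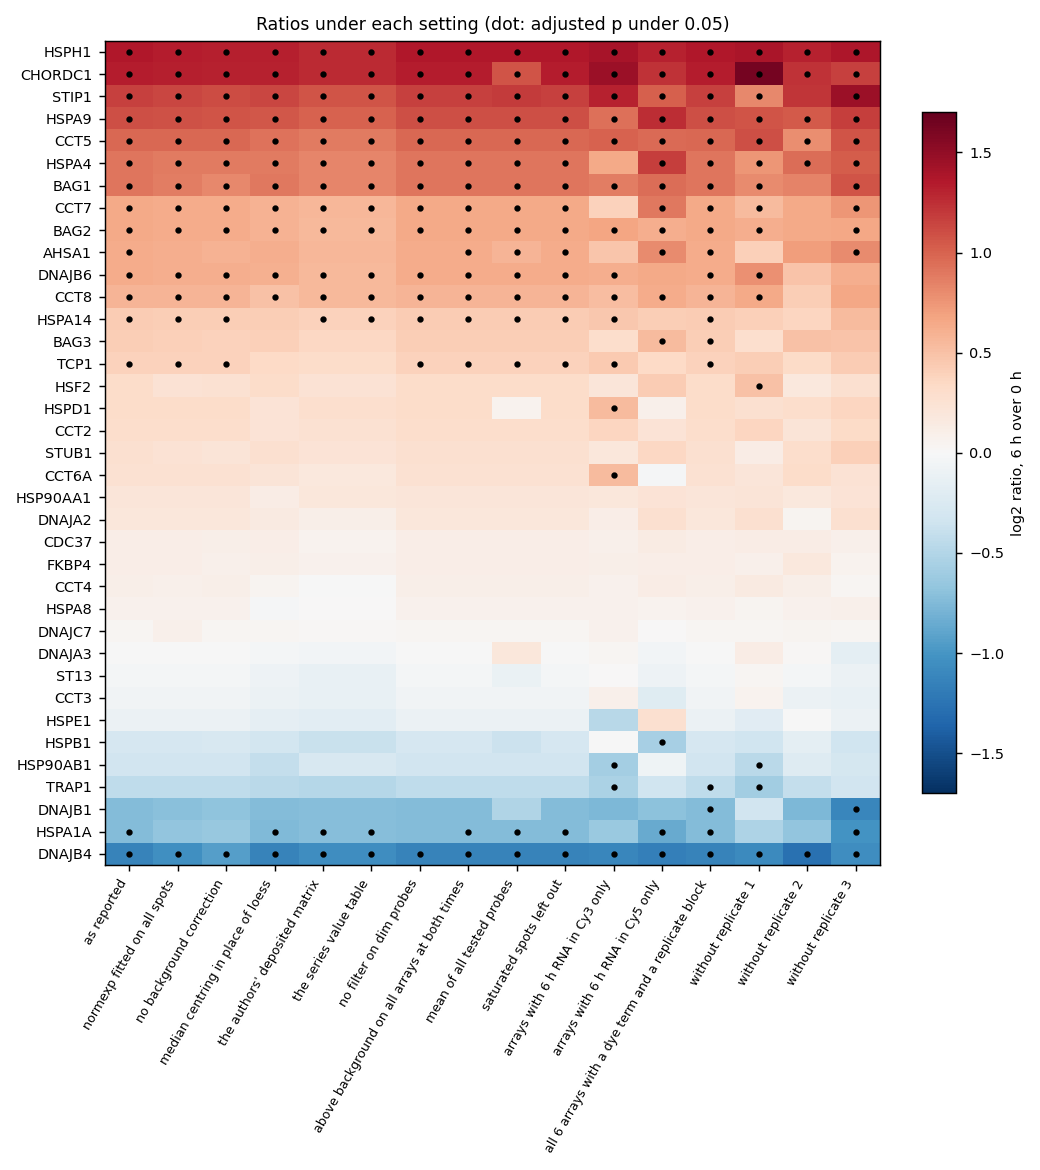
Log2 ratio of 6 h over 0 h (colour) for the 37 tested chaperone genes (rows, by mean ratio) as reported and under 15 alternatives (columns), with a dot where the limma adjusted p was under 0.05. HSPH1, CHORDC1, HSPA9, CCT5 and DNAJB4 carry a dot in every column, and the column without replicate 2 has the fewest called genes (6).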

How the data were processed

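The authors deposited scanner intensity values for every spot, on a linear scale and uncorrected, together with local background values and flags for spots to ignore, per the file headers. A matrix that the authors deposited holds log2 ratios, Cy5 over Cy3 by comparison with the scanner values. The sources used here do not give how it was corrected and normalized. Its array medians were -0.0186 to 0.00676, and per array it correlated at 0.99 to 0.995 with the loess ratios over probes, so that its exact centring is unknown but its scale and direction are settled. The value table of the series is identical to it, and both served as alternatives. Spot means were corrected with normexp (offset 50) fitted on spots that were not ignored, normalized by loess within arrays and turned to 6 h over 0 h. Both arrays of a swap were averaged (n = 3), and time points were paired within the array. Levels are log2 intensities after Aquantile scaling and are not compared between probes.

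The background threshold in each channel was the mean + 2 SD of 153 negative controls. A probe was tested if it exceeded this on all 6 arrays at 6 h or at 0 h (20831 of 43794 probes, 8671 of them without a symbol), and each gene took its brightest tested probe (9218 genes). Median raw signal per array was 208.3 to 264.2 in Cy3 and 169.4 to 211.5 in Cy5, and 11 to 69 spots were ignored. Between 41.3% and 79.9% of probes were above background at 6 h and 51.3% to 84.3% at 0 h. The number of arrays limits the precision.

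Ratios were tested against 0 with limma 3.58.1 in R 4.3.3 (lmFit and eBayes, two-sided, Benjamini-Hochberg over all genes, threshold 0.05). On simulated data of this design, 61.2% of 67 genes changed 2-fold and 1.49% of 67 changed 1.5-fold were called. In that simulation 9018 of 9218 genes were unchanged, whereas 35.6% of all genes tested were called here. The adjustment is stricter where fewer genes change, so these shares do not measure the power of the test reported here. A gene not called may still have changed by an amount within its 95% interval. On the log2 scale the interval of HSPA8 (-0.19 to 0.33) held neither a 1.5-fold nor a 2-fold change. That of DNAJB1 (-1.48 to 0.02) held both. Symbols were from the platform annotation, updated through RefSeq (ARS-UCD2.0), with HSPA1B kept as given. The genes, their families and the other lists were chosen with earlier results of these data known. Named genes are all 40, the 8 other network genes with the smallest p, and marker genes. No sequences were used, gene coordinates served only to find neighbouring genes, and promoter motifs were not searched.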

Additional observations from a re-analysis of the deposited data

Results flagged for a closer look

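The log2 ratio of CCT3 on the array of replicate 1 with 6 h RNA in Cy5 was -0.60, far from the other 5 arrays, which lay between -0.003 and 0.17. The gap to the nearest array was 0.781 of the whole range across the 6 arrays, above the 95% critical value of Dixon's test. It was the single such array among 37 tested genes, and chance flags about 5 percent of groups. CCT3 was not called with or without replicate 1.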

How the results depend on the processing

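Of 555 values of single chaperone genes under 15 alternatives, 504 kept their side of the threshold, 38 lost a call, 13 gained one and none reversed a called direction. The 15 alternatives count the identical deposited matrix and value table separately. Among the 504 were 13 values, of 7 uncalled genes, whose sign changed without a call. The number of chaperone genes called lower, 2 as reported, was 1 with normexp fitted on all spots, without background correction and without the filter on dim probes, and 4 with all 6 arrays, a dye term and a replicate block (consensus correlation 0.492), where HSPA1A and DNAJB4 were joined by DNAJB1 and TRAP1. The median ratio of the chaperone genes, 0.28 as reported, was 0.23 with median centring, 0.23 with the authors' deposited matrix and 0.23 with the value table, and 0.20 on the arrays with 6 h RNA in Cy3. With 1 replicate left out, 6 to 15 chaperone genes were called (5 to 12 higher, 1 to 3 lower), with a median of 0.22 to 0.27, and 1351 to 3336 of all genes (709 to 1592 higher, 642 to 1744 lower). The lowest of each of these ranges came without replicate 2, and the cause was not tested. A fit of all tested probes together, chosen after the data were seen, called 16 of the chaperone genes through their brightest probe. In that fit DNAJA3 and DNAJB1 were called through another probe only (limma adjusted p 0.0232 and 0.0368). Of 135 family medians, 11 moved by more than the SD between replicates. Dim signal kept HSF1 and HSPB8 from being tested.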

Other observations

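A wider list of 57 chaperone network genes was also chosen with earlier results of these data known. It had 45 tested genes, of which 11 were called higher (24.4%, against 17.4% of all genes tested) and 6 lower (13.3%, against 18.2%). The median log2 ratio of the list was 0.10. DNAJB5, a cytosolic J-domain relative of DNAJB1 and DNAJB4, rose by 1.89 ± 0.10 (SD, n = 3, limma adjusted p 0.000836), with replicate ratios of 1.79, 1.98 and 1.90. DNAJB4, at -1.14 ± 0.23, fell, and every replicate of DNAJB5 was above and every replicate of DNAJB4 below 0. DNAJC21, a J-domain protein of ribosome maturation, rose by 1.15 (limma adjusted p 0.00351), with replicate ratios of 1.24, 0.86 and 1.33. BAG6, which guides tail-anchored and misfolded proteins, rose by 0.92, RUVBL1, an ATPase of the R2TP assembly complex, by 0.66, GRPEL1, the exchange factor of HSPA9, by 0.66 and TOMM34 by 0.66 (limma adjusted p 0.00935 to 0.0246). RPAP3, another R2TP subunit, fell by 0.49 on the log2 scale and TOMM70, an import receptor of mitochondria, fell by 0.46 (limma adjusted p 0.022 and 0.0228). The other R2TP subunits, RUVBL2 (0.53, limma adjusted p 0.11) and PIH1D1 (0.12, limma adjusted p 0.551), named after their values were seen, were not called.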
